A study of Mus musculus with 9 samples.

Results

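Scavenger receptors and C-type lectin receptors are the surface proteins with which a macrophage binds bacteria, fungi, modified lipoproteins and dying cells. The 10 genes described here are Marco, Msr1 and Colec12 (class A scavenger receptors and a related collectin), Stab1, Scarb1, Scarb2 and Olr1 (other scavenger receptors) and Clec7a, Clec4n and Clec4e (C-type lectin receptors). They were chosen by name, and all probes whose platform symbol or older alias is one of these genes were taken, 19 of the 46237 probes on the array. Of the 19, 16 carried the gene's symbol or an accession that led to it, and 3 were matched through an older alias, 1 each for Scarb1, Scarb2 and Clec7a.

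The RNA was that of lung macrophages of C57/BL6 mice, all female and 8 weeks of age, sorted by flow cytometry on SiglecF and CD11b, amplified as cDNA and read on 9 single-colour Illumina beadchip arrays in 3 groups of 3. The first group, called Pparg-deficient alveolar macrophages by its labels and titled "int pop", a name the labels do not explain, came from Pparg-/-.LysMCre mice. The second, called homozygous wild type below, carries the same genotype label, but its cell type label calls the cells wild type. The third, called heterozygous below, came from Pparg-/+.LysMCre mice and is also labelled wild type. All 3 groups carry LysMCre, a Cre recombinase under the LysM promoter, which is active in cells of the myeloid lineage, and no group without Cre was analysed here. Beyond the sort, no source says how cells of both kinds were separated in mice that share a genotype label. PPARg, the protein of Pparg, is a lipid-activated nuclear receptor.

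Class A scavenger receptors carry a collagen-like stalk and bind polyanionic ligands such as bacterial surfaces and oxidised lipoproteins, and Marco is known as a receptor of alveolar macrophages for inhaled particles and bacteria. The C-type lectin receptors read sugars and glycolipids of microbes. Dectin-1 (Clec7a) binds beta-glucan of fungi, Dectin-2 (Clec4n) binds mannans, and Mincle (Clec4e) binds the cord factor of mycobacteria. All of them signal through the kinase Syk, Dectin-1 by its own tail and Dectin-2 and Mincle through the adaptor FcRgamma, encoded by Fcer1g. Card9, Bcl10 and Malt1 pass the signal on to NF-kappaB.

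For 6 of the 10 genes, Colec12 not among them, a RefSeq promoter window of assembly GRCm38.p6 was used. The 250 bases before the start are shown for Marco, whose signal fell in the deficient group, and Clec4e, whose deficient arrays lay above all control arrays. The Marco window is chr1:120505025-120505274 and the Clec4e window chr6:123289872-123290121, both on the minus strand and written 5′ to 3′ towards the start. Capitals mark GAGGAA on either strand, a short core of the sites that the myeloid factor PU.1 binds.
Marco: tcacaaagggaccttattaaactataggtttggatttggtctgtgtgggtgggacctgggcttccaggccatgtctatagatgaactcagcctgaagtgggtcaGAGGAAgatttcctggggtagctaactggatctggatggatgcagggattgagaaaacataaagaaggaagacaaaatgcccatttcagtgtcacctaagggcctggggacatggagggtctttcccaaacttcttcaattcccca
Clec4e: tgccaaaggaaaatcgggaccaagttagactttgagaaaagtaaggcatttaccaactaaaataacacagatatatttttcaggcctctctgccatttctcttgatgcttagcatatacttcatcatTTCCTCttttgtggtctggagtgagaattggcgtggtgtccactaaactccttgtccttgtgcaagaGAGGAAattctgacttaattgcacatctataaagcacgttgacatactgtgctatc

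The Marco window holds 1 such core and the Clec4e window holds 2. This short motif was chosen after the letters were seen, and 23.3% of the 32851 promoter windows of the same length hold it. Neither window holds, on either strand, an exact direct repeat of AGGTCA with 1 base between, of the kind that PPARg and its partner RXR bind, and 0.0335% of all windows do. Neither holds TGANTCA of AP-1 (6.75% of windows), the longer PU.1 motif GAGGAAGT (2.44%) or TGACNNNGC of the antioxidant response element (10.2%). The short core also stands in the windows of Clec7a, Olr1 and Stab1, so it is not particular to Marco and Clec4e. Among the windows of the other 4 genes, that of Olr1 holds TGANTCA and that of Scarb2 holds TGACNNNGC. These are matches of letters in a short stretch and say nothing about binding.

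The arrays had median raw signals from 145 to 290.3, and 37.8% to 42.5% of probes per array had a detection p under 0.05, which is called above background here. The titles carry a long number, which the 6 control arrays share and the 3 deficient arrays do not, and the labels do not say what it stands for. This number and the deficient group cannot be told apart in any comparison below other than that between the controls. Whether the arrays of a group stand for separate mice is not stated, so the p-values reflect the variation among these samples only, and that variation may be technical. With 3 arrays a group, precision is limited throughout. Pparg itself, at its brightest probe, read 7.57, 7.22 and 7.76 (log2 signal) on the deficient arrays, 9.71, 9.15 and 8.13 on the homozygous wild type arrays and 9.45, 9.35 and 9.54 on the heterozygous arrays. The limma adjusted p against both controls was 0.0588, and since the position of its probes against the deleted part of the gene is unknown, this does not check the labels.

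The deficient samples also carry another name in their titles ("int pop"), and markers of several cell types differed with the group. Over all genes, 0.204% were called lower and 0.572% higher against both controls. Of 11 alveolar macrophage markers tested against both controls, 3 fell (Siglecf, Krt19 and Cidec). In that list 3 differences were above 0 and 8 below, with a median of -0.36. Of those above 0, 1 had an unadjusted limma p under 0.05. The cells were sorted on SiglecF, so the fall of Siglecf cannot be told apart from the sort. The summed signal of the list was 10820 to 11350 on deficient arrays, 13000 to 14420 on homozygous wild type arrays and 14180 to 14840 on heterozygous arrays. Fabp4, a defining marker, was not above background on any array. Of 10 markers of monocytes and interstitial macrophages, C1qb and Apoe rose and Fcgr4 fell. The sum of that list was 5129 to 7951 in the deficient group, 2340 to 4086 in the homozygous wild type group and 2715 to 2885 in the heterozygous group, with Ccr2 and Pf4 at background on all arrays. Of 5 neutrophil markers tested Mmp8 rose, but 2 differences were above 0 and 3 below, with a median of -0.33. The list summed to 613.1 to 664.1, 570.3 to 757.7 and 427.7 to 552.1 in the same order, with 6 of 13 genes, among them Elane and Ltf, never above background. Of 9 epithelial markers tested Hopx rose, but 4 differences were above 0 and 5 below, with a median of -0.04. That list summed to 2247 to 2934 on deficient arrays, 1919 to 2266 on homozygous wild type arrays and 2036 to 2365 on heterozygous arrays, with Krt18 never above background. In the lists of general macrophage, eosinophil, dendritic, and T, B and NK cell markers no gene tested was called against both controls. The part of these marker differences in the results on the receptors was not tested. In sorted bulk cells, fewer cells of a type and less RNA per cell cannot be told apart.

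Against both controls, 2 of the 8 receptor genes that could be tested were called in the limma fit over 12246 genes (Benjamini-Hochberg adjusted p under 0.05). Marco fell and Colec12 rose, and the other 6 did not pass the test. Over all genes 0.776% were called, 0.572% higher and 0.204% lower. Colec12 passed the filter on dim probes only through the deficient arrays and so had to differ, and the count of 2 is given as a description. Deficient arrays lay outside all 6 control arrays for Marco, Colec12 and Clec4e, 3 of 8, against 6.88% of all genes. For Colec12 this too followed from the filter, so the 3 of 8 is also only a description. The median log2 difference of the 8 was 0.11, beside -0.07 over all genes. Msr1 and Olr1 did not pass the filter.

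**Figure D1:**
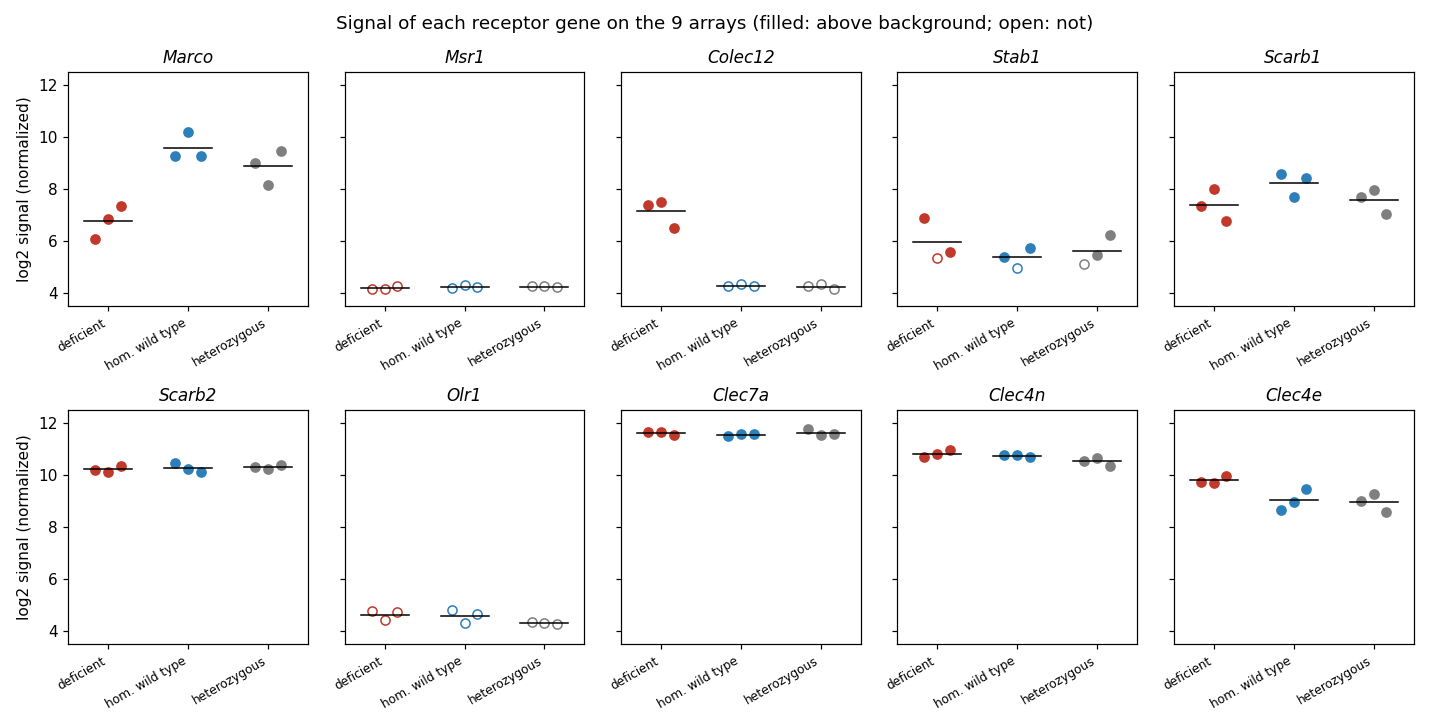
Normalized log2 signal of each of the 10 genes on the 9 arrays, at the probe used for the gene (for Msr1 and Olr1, which had none that passed the filter, the brighter probe), with 1 point per array, a line at the group mean, and open points where the probe was not above background. Marco is lower on all 3 deficient arrays than on all 6 control arrays, Colec12 is above background on the deficient arrays alone, and Clec7a, Clec4n and Scarb2 are close to level.

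Marco has 1 probe, above background on all 9 arrays. Its log2 signal was 6.07, 6.84 and 7.34 on deficient replicates 1 to 3, 9.25, 10.19 and 9.27 on the homozygous wild type arrays and 9.00, 8.13 and 9.46 on the heterozygous arrays. The highest deficient array lay below the lowest control array, and the order of the groups was deficient, heterozygous, homozygous wild type, with the control groups overlapping. In raw signal the deficient arrays read 180, 244 and 310, against 467 to 1430 on the control arrays.

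The Marco signal was 5.53-fold lower in deficient cells than in both controls (95% confidence interval 2.98 to 10.3), a log2 difference of -2.47 (SE 0.397, limma adjusted p = 0.0240). The two-sided exact permutation p over the 84 ways to choose 3 arrays was 0.0119, which is as low as it can go. It ranked 47 of 12246 genes by the size of its difference. Against heterozygous cells alone the log2 difference was -2.11 (adjusted p = 0.0693) and against homozygous wild type cells -2.82 (adjusted p = 0.0560), and neither passed the threshold. Homozygous wild type cells read 0.71 above heterozygous cells on the log2 scale (adjusted p = 0.829). The size depends on the background correction, at -1.45 with none and -1.43 in the authors' normalized table, and in both the call was kept.

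The call against both controls was lost when 1 of 4 arrays was left out, with an adjusted p for Marco of 0.163 and 0.126 for deficient replicates 1 and 2 and of 0.0643 and 0.0557 for heterozygous replicates 1 and 3. It was also lost with no filter on dim probes (0.0661). The titles give deficient and homozygous wild type samples the same names, Hom1 to Hom3, and whether a shared name marks the same mouse is not stated. With the number as a block over all 3 groups the call was lost (adjusted p = 0.0553). With Hom numbers alone as a random block, an alternative chosen after seeing the data, the call was kept (0.0180), and Marco was also called against homozygous wild type cells (0.0388). The direction was the same in all 27 alternatives. With 1 probe and no overlap between deficient and control arrays, it could hardly turn in most of them.

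Colec12, a membrane collectin also called scavenger receptor CL-P1, combines a collagen-like stalk with a C-type lectin domain and is known mainly from endothelial cells. It lies on mouse chromosome 18. Of its 3 probes, 2 rest on the reference transcript and the third on a cDNA clone. The probe used here read 7.38, 7.51 and 6.51 on the deficient arrays, 4.24, 4.32 and 4.24 on the homozygous wild type arrays and 4.25, 4.32 and 4.14 on the heterozygous arrays. It was above background on all 3 deficient arrays and on 0 of 6 control arrays, a pattern that 31 of 12246 genes share (0.253%).

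Because the controls have only a bound, the fold is a lower limit under the background correction used here, set as the deficient mean against the mean of the lowest signals above background on the control arrays. Against both controls Colec12 was at least 4.76-fold higher (fitted log2 difference 2.88, limma adjusted p = 0.00104). It was at least 4.70-fold higher than in heterozygous cells (adjusted p = 0.00203) and at least 4.81-fold higher than in homozygous wild type cells (adjusted p = 0.00444). It was the receptor called in both of these comparisons, in which 1.07% and 0.188% of all genes were called. Since this probe passed the filter only through the deficient arrays, its calls and p-values are a description and not support. In raw signal its deficient arrays read 271, 315 and 252, and its control arrays lay between 120 and 202, so the gap is narrower before background correction. The fitted log2 difference from both controls was 1.72 with normexp without control statistics, 1.10 with no background correction and 1.10 in the authors' normalized table, all smaller than the lower limit above, and the call was kept in each.

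The second Colec12 probe also passed the filter only through the deficient arrays, so that it too had to differ and its values are a description. It read 6.87, 6.95 and 6.33 on the deficient arrays and 4.17 to 4.43 on the control arrays, at least 3.56-fold higher (adjusted p = 0.00136 over all probes, of which 0.706% were called). The third, from the clone, was not above background on any deficient array. It was above background on homozygous wild type replicate 3 and on heterozygous replicates 1 and 3, with a log2 difference of -0.29 (adjusted p = 0.770 over all probes). The probes of the gene thus disagree. The brightest probe was also chosen anew with normexp without control statistics, with no background correction and in the authors' normalized table. In each of these the clone's probe was taken and the gene was not called. Of 6 endothelial markers tested 0 were called against both controls, and Vwf and Tek had an unadjusted p under 0.05, with log2 differences of 1.53 and -0.77. The list's summed signal was 566.3 to 659.7 on deficient and 520.9 to 670.8 on control arrays, and Eng, an endothelial marker, was not above background on any array. Against heterozygous cells alone Vwf rose (log2 difference 2.36, limma adjusted p = 0.0180). For fibroblast markers 0 of 4 were called, the sums were 386.1 to 449.2 and 385.6 to 461.5, and Col1a2, Col3a1, Lum and Mgp were not above background on any array. The part of these markers in the Colec12 values was not tested.

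**Figure D2:**
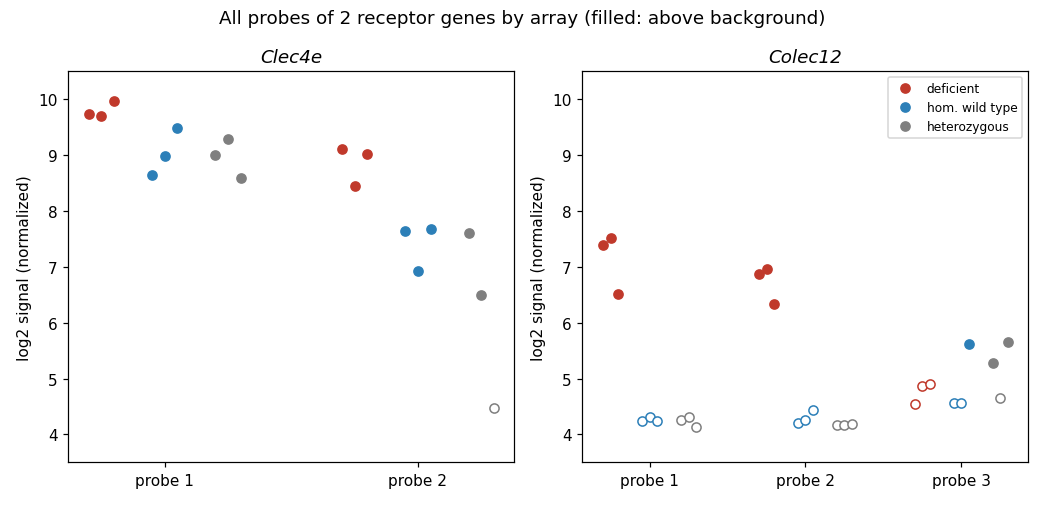
Normalized log2 signal on each array at the 2 probes of Clec4e and the 3 probes of Colec12, with points coloured by group and open where the probe was not above background. Probes 1 and 2 of Colec12 separate the deficient arrays from all control arrays and probe 3, from a cDNA clone, does not, while both Clec4e probes have the deficient arrays on top.

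Msr1, the founding class A scavenger receptor (SR-A), has 1 probe, which was not above background on any of the 9 arrays. Its log2 signals lay between 4.16 and 4.31 in all groups, with no order among them, so the array gave no level for a comparison. A probe at background does not show that the gene was silent.

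Stab1 (stabilin-1) is an endocytic receptor of tissue macrophages and sinusoidal endothelium, on chromosome 14. Its brighter probe read 6.88, 5.35 and 5.57 on the deficient arrays, 5.39, 4.96 and 5.73 on the homozygous wild type arrays and 5.09, 5.47 and 6.23 on the heterozygous arrays. It was above background on 2 arrays of each group, and the groups overlapped. The difference from both controls was 0.46 (SE 0.398, limma adjusted p = 0.678), and without deficient replicate 1 it was -0.01. The second probe was not above background on any array.

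Scarb1 (SR-B1), the receptor for high-density lipoprotein, read 7.35, 7.99 and 6.75 on the deficient arrays, 8.56, 7.67 and 8.40 on the homozygous wild type arrays and 7.70, 7.95 and 7.03 on the heterozygous arrays. The groups overlapped, and the difference from both controls of -0.52 (SE 0.353, limma adjusted p = 0.589) was within the spread. Its 95% interval, from -1.31 to 0.27, includes 0. The probe under the older alias Srb1 gave -0.79 (adjusted p = 0.414 over all probes) and also overlapped, with deficient arrays at 6.85, 6.09 and 6.04 and control arrays from 6.24 to 7.68.

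Scarb2 (LIMP-2), a lysosomal membrane protein that carries glucocerebrosidase to lysosomes, was close to level. Its brighter probe read 10.21, 10.13 and 10.36 on the deficient arrays and 10.11 to 10.47 on the control arrays, a difference of -0.06 (95% interval -0.51 to 0.40, limma adjusted p = 0.934). The probe under its older clone name gave 0.34 (adjusted p = 0.630 over all probes). Both class B genes lie on chromosome 5.

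Olr1 (LOX-1), a receptor for oxidised low-density lipoprotein with a C-type lectin fold, was not above background at either of its 2 probes on any array. Its log2 signals lay between 4.27 and 4.81. It lies beside Clec7a on chromosome 6, with 0 protein-coding genes between them in the RefSeq table, and that neighbour was bright on every array.

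Clec7a (Dectin-1) did not pass the test at any of its 3 probes. The probe used read 11.66, 11.65 and 11.53 on the deficient arrays, 11.50, 11.57 and 11.57 on the homozygous wild type arrays and 11.77, 11.53 and 11.59 on the heterozygous arrays. All 9 values lie between 11.50 and 11.77, and the groups interleave. The difference from both controls was 0.03 (95% interval -0.41 to 0.47, limma adjusted p = 0.967). The probe named by its older alias gave -0.13 and the third probe -0.03 (adjusted p = 0.861 and 0.970 over all probes). The intervals of the 3 probes run from -0.62 to 0.51 in all.

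Clec4n (Dectin-2) has 1 probe, which read 10.69, 10.80 and 10.97 on the deficient arrays, 10.78, 10.76 and 10.68 on the homozygous wild type arrays and 10.56, 10.67 and 10.36 on the heterozygous arrays. The deficient arrays lay above the heterozygous arrays but among the homozygous wild type arrays. Between these 2 groups, 22.6% of all genes had arrays that did not overlap, in either direction. The difference from both controls was 0.18 (SE 0.202, limma adjusted p = 0.750).

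Clec4e (Mincle) leaned upwards in deficient cells without passing the test. Its brighter probe read 9.73, 9.70 and 9.96 on the deficient arrays, 8.64, 8.98 and 9.48 on the homozygous wild type arrays and 8.99, 9.29 and 8.58 on the heterozygous arrays. All deficient arrays lay above all control arrays. The difference from both controls was 0.80 (SE 0.264, limma adjusted p = 0.242), a signal 1.75-fold that of the controls (95% interval 1.16 to 2.64). The exact permutation p of this 1 probe was 0.0119, again as low as it can go, and deficient arrays lay above all controls for 3.58% of all genes.

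The second Clec4e probe read 9.10, 8.45 and 9.01 on the deficient arrays, 7.63, 6.92 and 7.68 on the homozygous wild type arrays and 7.61, 6.50 and 4.47 on the heterozygous arrays, the last not above background. Its difference was 2.05 (SE 0.575, adjusted p = 0.181 over all probes). Both probes thus had the deficient arrays on top, and neither was called. Over the alternatives the difference of the gene ran from 0.61 to 1.43 with adjusted p from 0.0652 to 0.472.

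**Figure D3:**
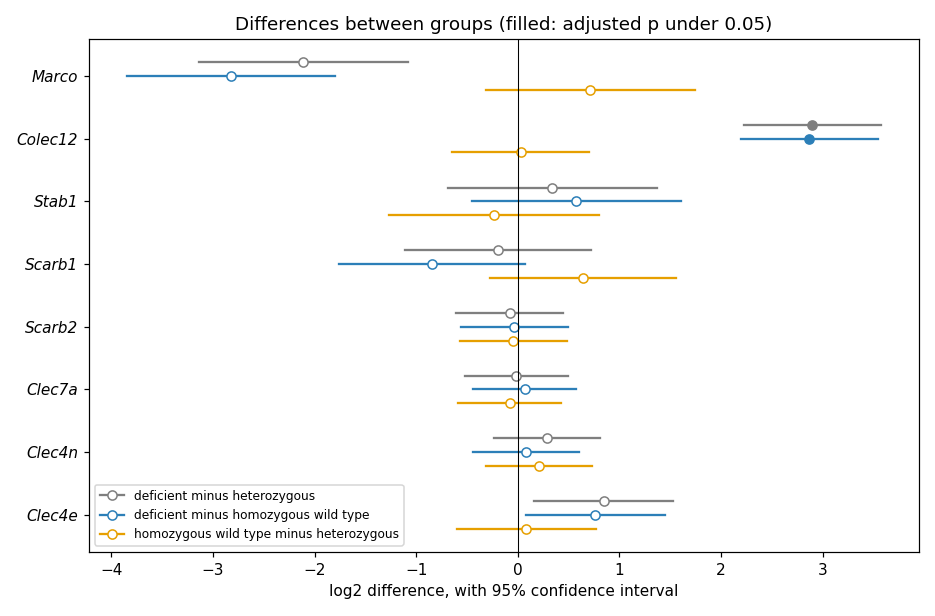
Log2 differences of the 8 receptor genes that could be tested, with 95% confidence intervals from limma, for deficient cells against each control group and for the control groups against each other, filled where the adjusted p was under 0.05. The Colec12 values are fitted differences against controls at background, Marco lies below 0 against both control groups without passing the threshold in either, and the intervals of the control comparison include 0 for all 8 genes.

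Between the control groups, which share the long number in their titles, 0 of the 8 receptors were called and 0 had an unadjusted p under 0.05 in limma, beside 0.0327% and 6.42% of all genes. The widest gaps were those of Marco at 0.71 and Scarb1 at 0.64 (adjusted p = 0.829 and 0.824), both higher in homozygous wild type cells. Deficient cells against each control group share the deficient arrays, so the values are set side by side and their likeness is no separate evidence.

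The genes around these receptors gave no call in any of the 4 comparisons. Of 16 other scavenger receptors 9 could be tested against both controls, with 5 differences above 0 and 4 below, and a median of 0.08. Cxcl16, a chemokine that in its membrane form binds oxidised lipoprotein, had the smallest p of the list, with means of 9.73 in deficient, 7.10 in homozygous wild type and 5.44 in heterozygous cells. Its difference of 3.46 (SE 0.772, limma adjusted p = 0.0881) came with a wide spread in the homozygous wild type group (SD 2.19, n = 3). Lgals3bp differed by -0.86 (adjusted p = 0.512). Cd163l1 was above background on 0 deficient, 1 homozygous wild type and 2 heterozygous arrays. Its groups overlapped, and the fitted difference near background was -0.38 (SE 0.339, adjusted p = 0.691).

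Of 28 other C-type lectin receptors of myeloid cells, 16 could be tested, 6 above and 10 below 0, with a median of -0.34. Ly75 (DEC-205), an endocytic receptor of dendritic cells, read 5.48 in deficient, 7.27 in homozygous wild type and 7.48 in heterozygous cells, a difference of -1.90 (SE 0.404, limma adjusted p = 0.0767). Clec4d, which pairs with Mincle in some settings, is the 1 protein-coding gene between Clec4n and Clec4e on chromosome 6. It read 9.64, 8.59 and 7.24 in the same order, a difference of 1.73 (SE 0.428, adjusted p = 0.119), with all deficient arrays above all control arrays. In this list of 16, deficient arrays lay above all control arrays for 1 gene and below them for 3. Over all genes 3.58% had deficient arrays above all controls, and 6.88% did not overlap in either direction. Clec4a3 differed by -0.84 (adjusted p = 0.238).

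Among adaptors and kinases downstream of the C-type lectin receptors, 26 of 33 could be tested, and 19 differences were above 0 and 7 below. The median was 0.42 beside -0.07 over all genes, of which 43.4% were above 0. The homozygous wild type group also lay above the heterozygous group in this list, with 20 of 26 above 0 and a median of 0.20. Malt1, the paracaspase of the Card9 complex, read 8.34 in deficient, 7.70 in homozygous wild type and 6.85 in heterozygous cells, a difference of 1.07 (SE 0.254, limma adjusted p = 0.106). Nfkb1 and Prkcd, a kinase that activates Card9, differed by 1.44 and 0.64 (adjusted p = 0.156 and 0.259). Fcer1g, the adaptor of Dectin-2 and Mincle, read 10.71, 10.73 and 10.55 in the 3 groups in the same order.

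Of 16 partners and cargo of the scavenger receptors 14 could be tested, 10 above and 4 below 0, with a median of 0.13. Cd14, the coreceptor for lipopolysaccharide, differed by 1.02 and Cd81, a tetraspanin, by 0.96 (limma adjusted p = 0.150 and 0.142). Abcg1, a cholesterol exporter, differed by -0.75 (adjusted p = 0.358).

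**Figure D4:**
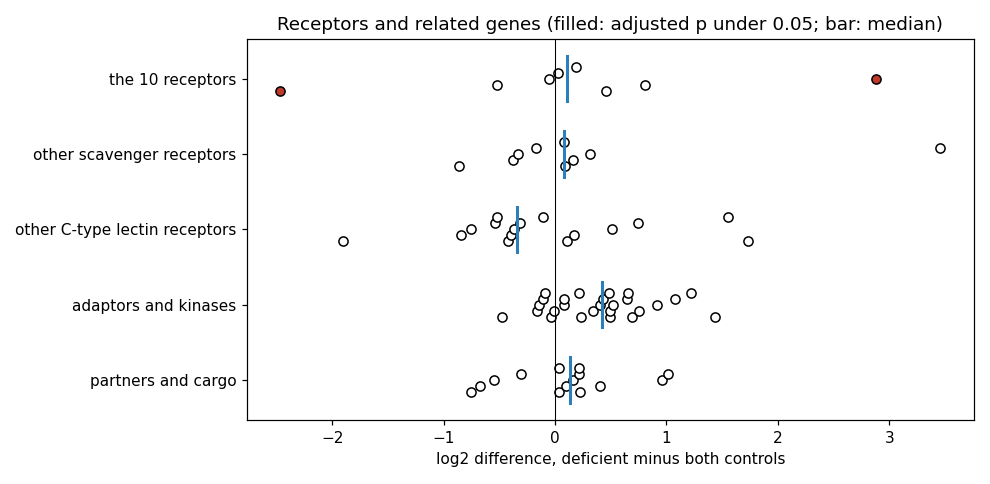
Log2 difference of deficient cells from both controls for each gene tested, in the receptors and in 4 lists of related genes, with a bar at the median of each row. The filled points are Marco at -2.47 and Colec12 at a fitted 2.88, and the open points, which include all genes of the other lists, did not reach an adjusted p under 0.05.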

How the data were processed

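The authors deposited a signal intensity per probe, not normalized per the file headers, beside detection p-values of unstated method, and a second table of intensity values that they had normalized in a way not stated either. With limma 3.58.1 in R 4.3.3, background was corrected by normexp (offset 16), with the level of negative controls inferred from detection p, which assumes that detection p ranks signals against such controls. Quantile normalization and log2 followed. A probe was kept if its detection p was under 0.05 on 3 or more of the 9 arrays (21946 of 46237), and the brightest passing probe stood for a gene (12246 genes). The platform annotation names 1 gene for 35784 probes, several for 0 and none for 10453. A RefSeq table (GRCm38.p6) gave the current symbol by gene ID for 28620 probes and by accession for 2637, and 4527 kept the old one. Alias probes of the receptors were tested under their own names.

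A model with 1 mean per group over all 9 arrays was fitted (lmFit, eBayes), with Benjamini-Hochberg adjustment in each of 4 comparisons and a threshold of 0.05. The fit was tried on data simulated from its own estimates with independent arrays, which cannot check its assumptions on the real arrays. Named are all 10 receptors with every probe, Pparg, called genes of the related lists and up to 3 more per list with the smallest p against both controls. Fcer1g, Tek, and the absent or called markers, were named after their values were seen. The receptors and lists were chosen with earlier results of these data known. Alternatives changed the background correction, normalization, source table, filter, probe choice, samples fitted and replicate blocks, and left out each array. Protein sequences were not used here.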

Additional observations from a re-analysis of the deposited data

How the results depend on the processing

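Of 852 recomputed values of the receptor genes, 791 kept their direction and their side of the threshold, and 37 changed sign. Of those that kept their direction, 9 lost and 15 gained a call. The 37 include further lost calls, those of Colec12 where the brightest probe was chosen anew. Colec12, at its own probe, was called against both controls and against heterozygous cells in each alternative that could test it. With a deficient array left out it could be tested only with a filter of 2 arrays (2.72 to 3.21 against both controls, chosen after seeing the data). Against homozygous wild type cells alone it lost its call where only the groups compared were fitted (2.87, adjusted p = 0.0555).

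The counts of genes called rose with another background correction and in the authors' table, whose normalization is not stated. Against both controls 95 genes were called, and 236 with normexp without control statistics (which also has another offset), 270 with no background correction and 274 in the authors' normalized table. Against heterozygous cells 131 became 290, 343 and 324, against homozygous wild type cells 23 became 50, 66 and 63, and between the controls 4 became 8, 11 and 20. In these 3 settings Marco was also called against each control group alone, so that 2 receptors were called there in place of 1. Against homozygous wild type cells that count of 2 also came with the mean of all probes and with no normalization between arrays. With the brightest probe chosen anew, also after seeing the data, the corresponding counts of genes were 235, 270 and 273, then 290, 342 and 323, then 48, 64 and 63, then 9, 14 and 21. The clone's probe then stood for Colec12, whose difference was -0.10, -0.06 and -0.09 against both controls, -0.17, -0.10 and -0.14 against heterozygous cells, -0.03, -0.02 and -0.03 against homozygous wild type cells and -0.13, -0.08 and -0.11 between the controls, and 1 receptor was called against both controls.

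With no filter on dim probes Marco lost its call, which left 1 receptor against both controls, and 0 genes were called between the controls, as also with only the groups compared fitted. With both controls as 1 group 56 genes were called, and with the deficient and homozygous wild type groups alone 10 genes and 0 receptors. With no normalization between arrays, where the median of all genes was -0.29 against both controls in place of -0.07, 2 genes were called between the controls, and Marco and Colec12 differed by -2.73 and 2.75 from both controls. Small differences turned there, to 0.09 for Clec7a and -0.03 for Stab1 against heterozygous cells and to 0.03 for Clec7a and 0.08 for Scarb2 between the controls. With the mean of all probes, Clec7a differed by -0.0039 from both controls and Colec12 by -0.04 between the controls, and in the authors' table Clec7a differed by 0.01 from heterozygous cells, with its probe fixed or chosen anew.

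Leaving out 1 array gave 22 to 99 genes and 0 to 2 receptors against both controls, 43 to 162 genes and 0 to 1 receptors against heterozygous cells, 7 to 28 genes and 0 to 1 receptors against homozygous wild type cells and 0 to 6 genes between the controls. Differences near 0 turned, with ranges of -0.01 to 0.75 for Stab1 against both controls, of -0.06 to 0.06 for Clec7a, -0.50 to 0.11 for Scarb1 and -0.13 to 0.65 for Stab1 against heterozygous cells, of -0.12 to 0.06 for Scarb2 against homozygous wild type cells, and of -0.14 to 0.28 for Clec4e, -0.02 to 0.07 for Colec12, -0.14 to 0.04 for Scarb2 and -0.48 to 0.08 for Stab1 between the controls. With a filter of 2 arrays, leaving out deficient replicate 1, 2 or 3 gave 45, 62 and 131 genes and 1 to 2 receptors against both controls, 61, 81 and 148 genes against heterozygous and 11, 23 and 38 against homozygous wild type cells. Stab1 then ran from -0.01 to 0.75 against both controls and from -0.13 to 0.63 against heterozygous cells, Clec7a from -0.04 to 0.03 and Scarb1 from -0.50 to 0.11 against heterozygous cells, and Scarb2 from -0.10 to 0.01 against homozygous wild type cells.

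Samples of the 3 groups share numbers in the titles. Their deviations from the group means correlated over 0.1 in 6 of the 9 same-numbered pairs, with a range from -0.06 to 0.22. Differently numbered pairs ran from -0.26 to 0.16, and most of them lay under 0.1. The main fit does not use the numbers, and this check does not settle whether they mark pairs. Between deficient and homozygous wild type samples, which share the names Hom1 to Hom3, the same-numbered correlations were 0.17, -0.06 and 0.14. With the number as a replicate block, 61 genes and 1 receptor were called against both controls, Marco not among them (-2.47, limma adjusted p = 0.0553), and 2 genes between the controls. With Hom numbers alone as a random replicate block (6 blocks, consensus correlation 0.105) 121 genes were called against both controls, and 2 receptors, Marco among them, against homozygous wild type cells. The cause of these changes was not tested. Signal near background limits Stab1, Msr1 and Olr1.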
